A study of Homo sapiens with 19 samples.

Results

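RNA-seq read counts were compared between 501Mel melanoma cells expressing an shRNA against MITF (shMITF) and 501Mel cells expressing the scramble control labelled shSCR2. These 4 samples, replicates 1 and 2 of each group, were chosen by their labels from 19 samples in all. 501Mel is an established human melanoma line with high MITF and pigmentation gene expression. Both hairpins were delivered by lentivirus, and all 4 samples are therefore infected and drug-selected cells. A single anti-MITF hairpin was used, and the labels do not say whether the replicates came from separate cultures, so the p-values measure the spread between these samples only. The same line also had samples with a scramble labelled shSCR1 (3 samples) and with a hairpin against BRG1, the SMARCA4 product and ATPase subunit of SWI/SNF chromatin remodellers (shBRG1, 3 samples). Hermes 3A, an untransformed immortalised human melanocyte line, had 3 samples each with shSCR and shMITF. By the paper's methods its medium held TPA, cholera toxin, stem cell factor and endothelin-1, which are not listed for 501Mel. Line and medium therefore cannot be told apart.

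MITF is the basic helix-loop-helix leucine zipper factor that specifies and maintains the melanocyte lineage. It binds E-box motifs, in particular the M-box form with a flanking T, upstream of genes for melanin synthesis and melanosome proteins, and it is also described as a regulator of cell-cycle, survival and metabolic genes in melanoma. Melanoma cells with high MITF are usually described as proliferative, and cells with low MITF as invasive.

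MITF itself measured 1037 and 1154 CPM in shSCR2 and 489 and 562 CPM in shMITF, where CPM is counts per 1000000 reads after TMM scaling. Both shMITF samples were below both shSCR2 samples, and the log2 fold change was -1.06 ± 0.135 (adjusted p = 0.00143) by the edgeR quasi-likelihood test with Benjamini-Hochberg adjustment, the test behind every adjusted p given here; errors after ± are standard errors. The level in the other scramble group, normalised together with these samples, averaged 626 CPM. In that joint scaling shSCR2 averaged 1223 and shMITF 577 CPM. The log2 fold change of shMITF against shSCR1 was -0.12 (adjusted p = 0.284). SMARCA4 measured 322 and 319.5 CPM in shSCR2 and 302 and 284 CPM in shMITF, slightly lower in both silenced samples, and was not called (-0.13 ± 0.116, adjusted p = 0.468). In bulk RNA, fewer cells of a type and less RNA per cell cannot be told apart.

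The upstream sequences of several pigmentation genes hold E-box letters of the kind MITF binds. The runs below come from RefSeq promoter windows on GRCh38.p14, each given 5′ to 3′ on the strand of the gene, and the capitals mark CATGTG or its reverse complement CACATG. DCT and TRPM1 are shown because they fell with shMITF, and TYR and TYRP1 because they carry the same letters and were not called. Of 13 genes for melanin enzymes and melanosome proteins with a window, 9 held CATGTG or CACGTG. Only DCT and TRPM1 among these 9 were called, so most genes with the letters did not fall. DCT has 2 matches in the window of 1 start site, 215 and 134 bases before that site, at chr13:94479880-94479909 and chr13:94479799-94479828 (minus strand).
DCT, distal: gtttggctggagCACATGagcccagataaa
DCT, proximal: tgcactttgggtCATGTGctaatgatgagg
TRPM1 (chr15:31101764-31101793, minus strand, 56 bases before a start): ggcccaagtgctCACATGctcctcatgggg
TYR (chr11:89177759-89177788, plus strand, 104 bases before the start): agaaaagtcagtCATGTGcttttcagagga
TYRP1 (chr9:12693229-12693258, plus strand, 144 bases before the start): ttggaagggaatCATGTGctgatcaagtcc
The proximal DCT run and the TYR and TYRP1 runs have a T directly before CATGTG, and the distal DCT run has it when read on the other strand. TYR and TYRP1 also have a second match, 12 and 11 bases before the start, and TRPM1 has another 8 bases before a different start, so the number of matches does not set DCT apart. SOX6, another gene that fell, has CACATG 136 bases before 1 of its start sites (chr11:16408975-16409004, minus strand): ctgtttatgtacCACATGtcctttataaag. The 250 upstream bases of CAPN3, TPCN2, TMEM163, TFEB, LEF1 and MITF held neither CATGTG nor CACGTG on either strand, which says only that these letters are not in these windows. Of 35116 such windows in the table, 9.42% held CATGTG and 6.34% held CACGTG on either strand. Among the 577 windows of genes that fell, 11.6% held CATGTG, against 6.67% of the 16939 windows of genes tested and 7.29% of the 1029 windows of genes that rose. For CACGTG the shares were 9.01%, 8.02% and 5.54%. The TCATGTG form was in 2.52% of all windows in the table, and in 3.12%, 1.66% and 1.65% of these. It is one of the CATGTG matches, and the windows of one gene can overlap.

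Of 17701 genes tested, 602 were lower with shMITF (3.4%) and 990 were higher (5.59%), at an adjusted p under 0.05 and an absolute log2 fold change over 1. A gene that passed both thresholds is said below to have fallen or risen. Without the fold threshold, 10.5% were lower and 10% higher. In all 602 and 990 genes the shMITF samples did not overlap the shSCR2 samples, a separation that 30.6% (lower) and 32.5% (higher) of all genes tested also showed. The rises were larger than the falls: 350 genes rose more than 4-fold and 155 fell more than 4-fold. Rises were most frequent among genes of 1 to 10 CPM, of which 9.98% rose and 4.82% fell, and above 100 CPM the shares were 2.3% and 3.33%. When 1 sample was omitted at a time, 288 of the genes that fell and 377 of those that rose were called in all 4 fits.

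**Figure D1:**
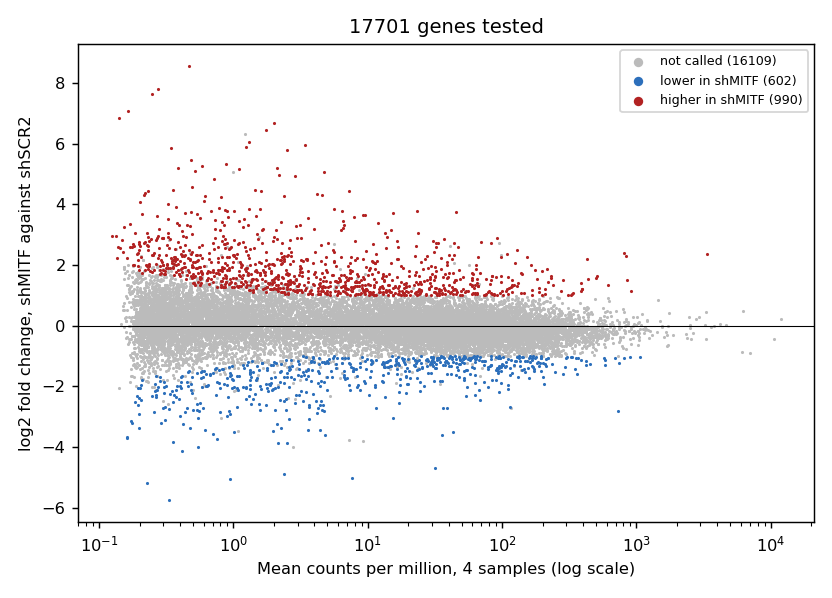
Log2 fold change of shMITF against shSCR2 (vertical axis) and mean CPM over the 4 samples (horizontal log axis), with 1 point per gene tested. The 602 lower and 990 higher genes are coloured, and the rises extend further from 0 than the falls, most of all at low CPM.

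The choice of scramble mattered. The shSCR2 samples differed from the shSCR1 samples at 6282 of 19056 genes (33%), more than shMITF differed from shSCR2. With shSCR1 as the control, 3376 of 19179 genes were lower with shMITF (17.6%) and 2335 were higher (12.2%). Of the 602 genes that fell against shSCR2, 586 could be tested against shSCR1. Of these, 320 were called lower, 254 were not called and 12 were called higher against shSCR1. Of the 990 genes that rose, 462 were called higher, 466 were not called and 62 were called lower. The labels do not say how the scrambles or their cultures differ, so the vector and the experiment cannot be told apart. The value against shSCR1 is therefore given beside many of the results. Counts of list members against shSCR2 stand beside the 3.4% lower and 5.59% higher of all genes. Those against shSCR1 stand beside the 17.6% lower and 12.2% higher of all genes. Total counts were 31651379 and 78857900 for shSCR2 and 43966564 and 49067705 for shMITF, and the mitochondrial share was 5.11% to 7.05% of counts. The 9 melanocyte markers, in CPM here without TMM scaling, summed to between 20150 and 21750 in shSCR2 and between 12110 and 12310 in shMITF. On the same scale, summed fibroblast, endothelial and haematopoietic markers stayed at or below 15.0 CPM in every sample. The 4 keratinocyte markers measured lay at 28.7 to 35.1, and KRT14 and TP63 had too few reads to be tested.

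Genes of the melanin pathway split into members that fell and members that did not. Of 16 melanin enzymes and melanosome proteins tested, 4 fell (25%) and 2 rose (12.5%), and the median log2 fold change was -0.63, against 0.01 over all genes. DCT, dopachrome tautomerase, measured 1491 and 1074 CPM in shSCR2 and 169.9 and 192 CPM in shMITF. Its log2 fold change was -2.82 ± 0.18 (adjusted p = 0.000169), the largest fall of the list, and it was -3.11 against shSCR1. TYR, the enzyme of the first steps of melanin synthesis, measured 591 and 597 CPM in shSCR2 and 683 and 967 CPM in shMITF. Its shMITF samples were above its shSCR2 samples, yet the log2 fold change of 0.47 was not called (adjusted p = 0.078), and against shSCR1 it was -0.61. TYRP1, the related enzyme that acts after DCT, went from 6874 and 9004 to 4783 and 3995 CPM. PMEL, which forms the fibrils of the melanosome, went from 9043 and 9209 to 4624 and 5107 CPM, and MLANA, a melanosome maturation protein, from 952 and 976 to 449.8 and 522 CPM. The values of these 3 genes did not overlap between groups, and their log2 fold changes of -0.85, -0.91 and -0.99 passed the adjusted p (0.0114, 0.00385 and 0.00164) without passing the 2-fold threshold.

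TRPM1, the cation channel melastatin, fell from 352 and 377 to 127 and 129 CPM, a log2 fold change of -1.51 ± 0.118 (adjusted p = 0.000242). CAPN3, a calpain protease expressed in melanocytic cells, fell from 67.2 and 50.4 to 19.8 and 18.8 CPM (-1.60 ± 0.17, adjusted p = 0.000703). TPCN2, a melanosomal cation channel, fell from 52.4 and 84.6 to 32.7 and 24.3 CPM (-1.27 ± 0.256, adjusted p = 0.0169). The 2 members that rose are transporters. SLC7A11, the cystine carrier that supports pheomelanin synthesis, rose from 80.8 and 144 to 312 and 391 CPM, by 1.64 ± 0.29 (adjusted p = 0.015), and TMEM163, a zinc transporter, rose from 3.33 and 3.31 to 11 and 19.4 CPM, by 2.19 ± 0.298 (adjusted p = 0.00187). All 6 kept their direction against shSCR1, where the values ran from -3.11 to 2.03. Of 29 genes of melanosome biogenesis and transport, 1 fell (3.45%) and none rose, against 3.4% and 5.59% of all genes tested. It was RAB27A, the GTPase that tethers melanosomes to actin motors, which went from 292 and 313 to 126 and 117 CPM (-1.31 ± 0.12, adjusted p = 0.000372).

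Among 18 lineage regulators tested, 3 fell (16.7%) and 1 rose (5.56%). TFEB, an MITF family factor and regulator of lysosome genes, fell from 31 and 27.8 to 5.22 and 4.75 CPM, a log2 fold change of -2.56 ± 0.185 (adjusted p = 0.000186). Its 4 values left a wide gap between groups, and the fall was as large against shSCR1 (-2.82). SOX6 fell from 198 and 253 to 117 and 78.3 CPM (-1.21 ± 0.211, adjusted p = 0.00867), and MITF was the other member that fell. LEF1, the WNT effector that binds DNA with beta-catenin, rose from 71 and 65.4 to 136 and 204 CPM (1.32 ± 0.189, adjusted p = 0.00319). SOX10, an upstream activator of MITF, measured 555 and 619 CPM in shSCR2 and 468 and 349 CPM in shMITF. All shMITF values of SOX10 were lower, but the difference was -0.52 on the log2 scale, inside the fold threshold. PAX3 (0.71) and TFE3 (0.69) were higher at an adjusted p under 0.05 without reaching 2-fold.

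**Figure D2:**
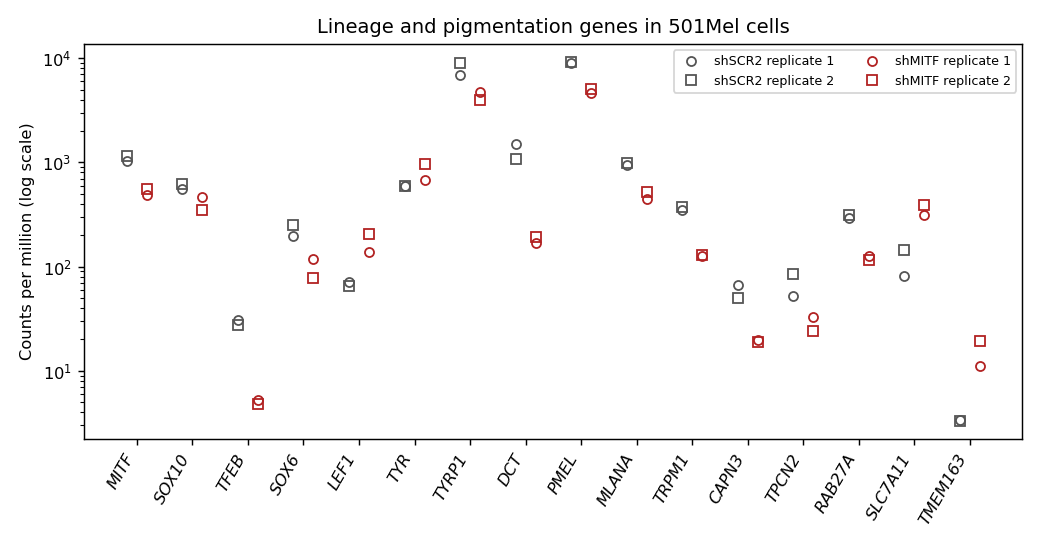
CPM (log axis) of 16 lineage and pigmentation genes in each of the 4 samples, grey for shSCR2 and red for shMITF, with a circle for replicate 1 and a square for replicate 2. DCT and TFEB show the widest gap between groups, TYR lies higher in shMITF, and LEF1, SLC7A11 and TMEM163 lie higher in both shMITF samples.

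Genes described as MITF targets outside pigmentation mostly measured lower. Of 23 tested, 5 fell (21.7%), 1 rose (4.35%) and 20 had a negative log2 fold change, with a median of -0.61. TRIM63, a ubiquitin ligase, fell from 130.1 and 218 to 50.0 and 40.9 CPM (-1.94 ± 0.259, adjusted p = 0.00475). PPARGC1A, the coactivator of mitochondrial biogenesis, fell from 227 and 255 to 79.2 and 68.6 CPM (-1.71 ± 0.133, adjusted p = 0.000237). BIRC7, an inhibitor of apoptosis, fell from 101 and 71.8 to 32.4 and 25.1 CPM (-1.59 ± 0.199, adjusted p = 0.00178). These 3 were lower against shSCR1 as well (-2.99, -1.01 and -3.03). MET, the hepatocyte growth factor receptor, fell by 1.29 log2 units (539 and 653 to 244 and 242 CPM), and CDK2, the S-phase kinase whose gene lies beside PMEL, fell by 1.02 (1217 and 1197 to 579.6 and 613 CPM). TBX2, a T-box repressor, was the member that rose (26.1 and 47.1 to 89.6 and 83.2 CPM, 1.23 ± 0.267 (adjusted p = 0.0236)). The list of the proliferative melanoma state, which shares members with the pigment lists, had 11 of 50 lower (22%) and 2 higher (4%), and that of the invasive state 1 of 35 lower (2.86%) and 12 higher (34.3%).

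Cell-cycle genes were lower as a group against shSCR2. All 58 genes of mitosis and the kinetochore had a negative log2 fold change, 15 fell (25.9%) and none rose, and the median was -0.77. CDK1, the mitotic kinase, measured 254 and 239 CPM in shSCR2 and 98.8 and 92.1 CPM in shMITF (-1.37 ± 0.119, adjusted p = 0.000289). KNL1, a kinetochore scaffold, measured 83.5 and 88.5 CPM in shSCR2 and 36.3 and 30.2 CPM in shMITF (-1.37 ± 0.141, adjusted p = 0.000627). All 50 DNA replication genes were also negative, with 8 that fell (16%) and a median of -0.70. MCM6, a subunit of the replicative helicase, had the largest fall of that list, from 221 and 219 to 80.5 and 72 CPM (-1.53 ± 0.123, adjusted p = 0.000255), and CLSPN, the checkpoint mediator claspin, went from 66.6 and 67 to 26.4 and 25.9 CPM (-1.35). Of 32 genes of the Fanconi and homologous recombination pathways, 6 fell (18.8%) and the median was -0.61; POLQ, a repair polymerase, went from 65.8 and 54.6 to 26.8 and 26.3 CPM (-1.18).

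These shifts were not present against the other scramble. Against shSCR1 the medians of the same lists were 0.12, 0.21 and 0.14. With the 501Mel samples normalised together, 57 of 58 mitosis genes, 50 of 50 replication genes and 29 of 32 repair genes were higher in shSCR2 than in shSCR1, by medians of 0.89, 0.94 and 0.72 log2 units. CENPO, NUF2, SPC25 and LIG1, named by the study, were -0.85, -0.95, -0.65 and -0.97 against shSCR2, inside the fold threshold, and 0.01, -0.74, 0.87 and -0.48 against shSCR1. The values against shSCR1 were 0.08 for CDK1, 0.03 for KNL1, -0.35 for MCM6 and 0.02 for CLSPN. The cause of the difference between scrambles was not tested.

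Among 29 genes of the G1 phase, 5 fell and 3 rose, with the following values against each scramble. CDC25A, the phosphatase that activates CDK2, fell from 79.7 and 94.6 to 23.4 and 20.1 CPM (-2.0 ± 0.152, adjusted p = 0.000229), and was -0.96 against shSCR1. CCND1, cyclin D1, fell from 634 and 529 to 226 and 289 CPM (-1.18 ± 0.156, adjusted p = 0.00171), and was -2.27 against shSCR1. E2F8, a late E2F repressor, fell by 1.70 and was -1.87 against shSCR1. CDK6, a kinase partner of D cyclins, rose from 43.7 and 42 to 134 and 109.7 CPM (1.51 ± 0.14, adjusted p = 0.000391) and was 3.43 against shSCR1. CDKN2B, the CDK4 and CDK6 inhibitor p15, rose from 10.2 and 6.89 to 36.1 and 75.6 CPM (2.73 ± 0.412, adjusted p = 0.0105). Its shMITF samples were further apart than its shSCR2 samples, and it was 0.87 against shSCR1.

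**Figure D3:**
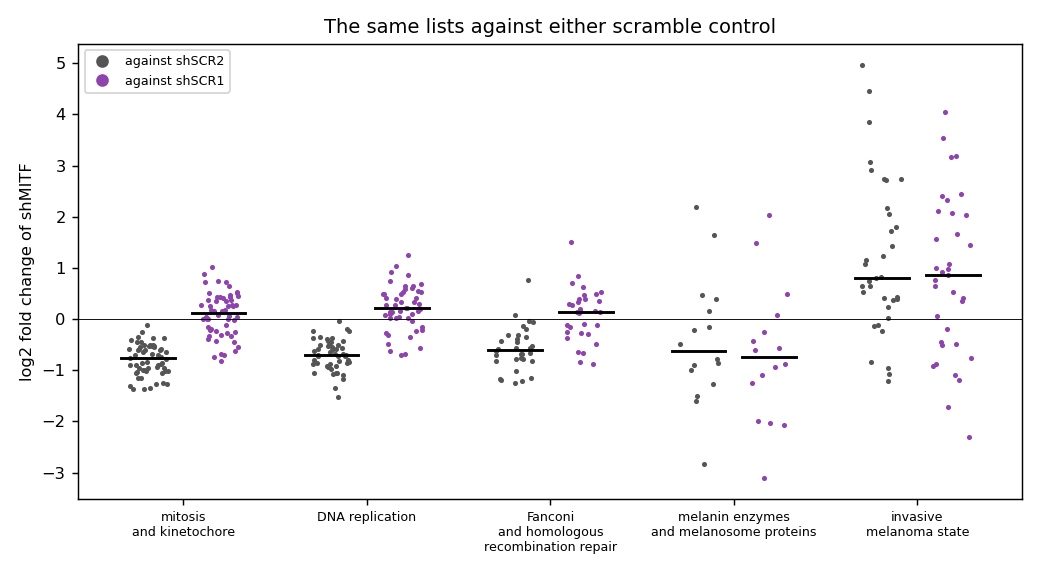
Log2 fold changes of shMITF against shSCR2 (grey) and against shSCR1 (purple) for the members of 5 lists, with the median as a bar. The medians of the 3 cell-cycle lists are negative against shSCR2 and slightly positive against shSCR1, whereas the pigment list is negative and the invasive list positive against both.

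The 12 largest falls among genes with at least 100 counts belonged to genes of several kinds. Among them, TGFB2, a TGF-beta ligand, went from 4.63 and 4.61 to 0.131 and 0.179 CPM (-4.87 ± 0.406, adjusted p = 0.000264), and PRDM7, a PR domain protein near-identical to PRDM9, from 54.2 and 67.1 to 1.96 and 2.71 CPM (-4.70 ± 0.217, adjusted p = 3.37e-05). Both were also lower against shSCR1 (-5.74 and -5.69). The neighbouring genes AQP5, AQP5-AS1 and AQP6, of which 2 encode water channels, fell by 3.88, 3.87 and 3.60. AQP5-AS1 is antisense to AQP5, and how the counting used strand is not given in the sources used here, so their reads cannot be told apart. CFAP61, a cilia protein, fell from 61.1 and 70.1 to 3.75 and 7.02 CPM (-3.60), and TMCC3 from 55.6 and 102 to 9.17 and 4.67 CPM (-3.51). LINC01594, PODN, PNLIPRP3 and RDH8 fell by 3.48, 3.45, 3.45 and 3.42, and each was also lower against shSCR1. In absolute CPM, the largest fall among genes past the 2-fold threshold was that of DCT, followed by NPM1, which encodes nucleophosmin and has processed copies, from 1334 and 1490 to 773 and 621 CPM (-1.02 ± 0.149, adjusted p = 0.00245). CDK2, H2AZ1, a histone variant (-1.23), and MITF came next. The NPM1 value was 0.48 against shSCR1.

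The largest rises started from almost no reads in shSCR2. PTF1A, a pancreatic and neural bHLH factor, had 0 and 4 counts in shSCR2 and 135 and 249 in shMITF, a ratio of 106 (95% exact interval 41.2 to 392, covering counting error only). AJAP1, an adherens junction protein, had 1 and 3 counts against 57 and 284 (ratio 94.3, 36.5 to 348), and PDGFB, a platelet-derived growth factor chain, had 0 and 4 against 47 and 207 (ratio 70.3, 27.1 to 260). PRDM1, a transcriptional repressor, had 2 and 2 counts against 61 and 176 (ratio 65.6, 25.3 to 243), LRRC55 7 and 1 against 62 and 421 (ratio 66.8, 33.6 to 156) and the chemokine CXCL14 2 and 4 against 26 and 185 (ratio 38.9, 17.6 to 107). CASS4 went from 0.13 and 0.0928 to 1.81 and 11.7 CPM (5.97), MAL2 from 0.259 and 0.133 to 1.88 and 9.23 CPM (4.94) and the imprinted RNA H19 from 0.13 and 0.119 to 4.93 and 0.637 CPM (4.47). In AJAP1, PDGFB, LRRC55, CXCL14, CASS4, MAL2 and H19 the 2 shMITF samples were more than 4-fold apart in CPM. The call was lost without shSCR2 replicate 2 in all 7 and without shSCR2 replicate 1 in all but PDGFB, and the log2 fold change of H19 ranged from 2.34 to 5.29 with 1 sample omitted. PTF1A, PRDM1, GAD1 (5.21) and COL13A1 (4.97) were called in all 4 such fits, but COL13A1 was -0.20 against shSCR1. With shSCR1 as the control, PTF1A was 8.62, LRRC55 5.1, AJAP1 4.59 and MAL2 4.48. Smaller values were found there for GAD1 (2.54), CASS4 (2.38), PRDM1 (1.87) and PDGFB (1.76). CXCL14 and H19 were positive but not called against shSCR1 (adjusted p = 0.0646 and 0.145). The size of several of these rises therefore depended on the scramble. In absolute CPM the largest rises among called genes were in well expressed genes. CTSB, the lysosomal protease cathepsin B, rose from 1128 and 1040 to 4314 and 6888 CPM (2.37 ± 0.226, adjusted p = 0.000712), SLC1A5, a glutamine transporter, from 295 and 265 to 954 and 1830 CPM (2.31 ± 0.315, adjusted p = 0.00658), and SLC2A1, the glucose transporter GLUT1, from 304 and 211 to 1103 and 1610 CPM (2.40 ± 0.246, adjusted p = 0.00164). The 3 genes differed against shSCR1: SLC1A5 was 2.07, SLC2A1 0.94 and CTSB 0.13. MYH9, the heavy chain of non-muscle myosin, rose from 527 and 599 to 1173 and 1330 CPM (1.15), and MFSD12, a lysosomal and melanosomal transporter, from 298 and 578 to 1339 and 1169 CPM (1.52).

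Invasive-state and YAP/TAZ target genes had positive medians against both scrambles. The invasive list had a median of 0.80, and 0.86 against shSCR1. Of 21 YAP/TAZ targets, 6 rose (28.6%) and 2 fell (9.52%), with a median of 0.97, and 0.80 against shSCR1. ANKRD1, a cardiac ankyrin repeat protein and standard YAP readout, measured 0.162 and 0.331 CPM in shSCR2 and 7.33 and 10.9 CPM in shMITF (5.08 ± 0.419, adjusted p = 0.000264), and MYOF, myoferlin, measured 3.98 and 5.99 CPM in shSCR2 and 47.3 and 37.7 CPM in shMITF (3.07 ± 0.231, adjusted p = 0.000237). AXL, the receptor tyrosine kinase that marks MITF-low melanoma, rose from 0.162 and 0.371 to 2.1 and 1.75 CPM (2.73 ± 0.452, adjusted p = 0.00405). CRIM1 and NRP1, both membrane proteins that bind growth factors, rose by 2.92 and 2.73. ZEB1, a transcription factor of epithelial-mesenchymal transition, had 1 and 2 counts in shSCR2 and 30 and 35 in shMITF, a ratio of 24 (exact interval 7.85 to 119). The other members of the epithelial-mesenchymal list, 9 of 10 tested, were not called, among them SNAI2 (-1.38, and 0.33 against shSCR1), ZEB2 (-0.75) and VIM (-0.12). CCN1 and CCN2, matricellular YAP targets, had log2 fold changes of 2.74 and 2.02 and did not pass. Their shSCR2 replicates were far apart: CCN1 measured 9.03 and 39.8 CPM in shSCR2 and 124 and 208 CPM in shMITF, and CCN2 11.6 and 32.8 CPM in shSCR2 and 97.6 and 84.4 CPM in shMITF.

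Actin and contractility genes moved in both directions. Of 22 tested, 7 rose (31.8%) and 2 fell (9.09%). TAGLN, transgelin, rose from 1.46 and 1.01 to 4.98 and 5.67 CPM (2.13), ACTN1, alpha-actinin, from 138 and 118 to 236 and 349.9 CPM (1.20), and ZYX, zyxin, from 34.7 and 34 to 72 and 81.5 CPM (1.16). While MYH9 rose, MYH10, the paralogous myosin heavy chain, fell from 744 and 864 to 343 and 392 CPM (-1.13 ± 0.137, adjusted p = 0.00114). Against shSCR1, ACTN1 and ZYX stayed higher (1.89 and 2.47), MYH10 stayed lower (-0.97) and TAGLN was -0.27.

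Several cytokine genes rose from low levels. Of 14 cytokines and chemokines with enough reads, 7 rose (50%) and none fell, and the other 22 on the list were not tested. CCL2, the monocyte chemoattractant, measured 0.259 and 0.557 CPM in shSCR2 and 7.03 and 10.4 CPM in shMITF (4.31 ± 0.416, adjusted p = 0.000489). IL24 rose from 0.712 and 0.703 to 4.95 and 5.51 CPM (2.88), IL11 from 0.194 and 0.106 to 1.53 and 1.83 CPM (3.58) and CXCL8, interleukin 8, from 0.583 and 0.954 to 1.59 and 3.78 CPM (1.77). The median of the list was 1.22 against shSCR2. Against shSCR1 the list went the other way: 19 members could be tested, 10 were lower and 2 higher, with a median of -1.34, and over the 14 genes above the median was 0.02. Against shSCR1, CCL2 was 1.30, but IL24, IL11 and CXCL8 were -1.34, -2.39 and -1.72. Of 16 NF-kappaB targets 2 rose, TRAF1 and PTGS2, and of 9 IGF binding and plasminogen system genes 3 rose, among them IGFBP5 (2.23) and SERPINB2 (3.78). Against shSCR1 these 2 lists had 3 of 17 lower and 1 higher, and 4 of 9 lower and 1 higher. The shares over all genes tested were 3.4% lower and 5.59% higher against shSCR2, and 17.6% lower and 12.2% higher against shSCR1. Among 24 growth and angiogenic factors 7 rose (29.2%) and 2 fell (8.33%), and against shSCR1 9 of 27 were higher and 7 lower. VEGFC, the lymphangiogenic factor, rose from 2.23 and 2.27 to 7.79 and 7.52 CPM (1.76 ± 0.267, adjusted p = 0.00281), PDGFA from 0.227 and 0.199 to 1.77 and 1.27 CPM (2.85), and NRG3, a neuregulin, fell from 28.3 and 19.4 to 8.6 and 9.23 CPM (-1.42).

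Several WNT pathway genes rose, among them negative feedback targets of beta-catenin. Of 27 tested, 9 rose (33.3%) and none fell, with a median of 0.47, and 0.46 against shSCR1. AXIN2, a scaffold of the beta-catenin destruction complex, rose from 38 and 58 to 157 and 243 CPM (2.05 ± 0.285, adjusted p = 0.00628). NKD1, an inhibitor of Dishevelled, rose from 20.8 and 21.9 to 112 and 209 CPM (2.91 ± 0.305, adjusted p = 0.00287). RNF43 and ZNRF3, ubiquitin ligases that remove Frizzled receptors, rose from 19.6 and 20.6 to 61.4 and 72.2 CPM and from 42 and 52.1 to 120.5 and 175 CPM (1.73 and 1.65). Against shSCR1 these 4 genes were 1.10, 2.43, 2.32 and 1.39. DKK1, a secreted inhibitor of LRP5 and LRP6, rose from 0.259 and 0.742 to 5.65 and 4.93 CPM (3.29), while CTNNB1, beta-catenin itself, was -0.05 (adjusted p = 0.838).

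TGF-beta and BMP genes had 10 of 33 higher (30.3%) and 2 lower (6.06%), and 12 higher and 6 lower against shSCR1. Over all genes tested, 5.59% rose and 3.4% fell, and against shSCR1 12.2% were higher and 17.6% lower. These shares also apply to the lists below. ID3, a BMP-responsive inhibitor of bHLH factors, rose from 62.3 and 41.6 to 309.9 and 194 CPM (2.28 ± 0.295, adjusted p = 0.00537), SMAD3, a signal transducer, from 10.0 and 13.9 to 31.2 and 63.2 CPM (1.97), and TGFBI, a matrix protein, from 0.55 and 0.318 to 3.25 and 4.16 CPM (3.16). TGFB2, the ligand described above, and FSTL1 (201 and 175 to 74.6 and 95.3 CPM, -1.15) were the 2 that fell. Among 15 integrins 4 rose and 1 fell, and against shSCR1 3 of 16 were higher and 3 lower. ITGB5 rose from 49.9 and 54.7 to 134 and 154 CPM (1.46), and ITGA7, a laminin receptor chain, fell from 163 and 126 to 38 and 64.7 CPM (-1.49). Of 36 collagens, laminins and matrix glycoproteins 5 rose (13.9%) and none fell, with a median of 0.25, whereas against shSCR1 14 of 38 were lower and 4 higher, with a median of -0.31. Those that rose included COL1A1, which also stands on the fibroblast marker list, from 0.615 and 0.649 to 2.31 and 1.85 CPM (1.71, and 0.20 against shSCR1). PDGFRB, with 3 and 6 counts in shSCR2 and 17 and 17 in shMITF, was the other fibroblast marker called, and its call was lost whichever of the 4 samples was omitted. The fibroblast markers COL1A2, COL3A1 and DCN had too few reads to be tested, and the part of such cells was not tested. Among 38 axon guidance genes 6 rose (15.8%) and 3 fell (7.89%), and against shSCR1 10 of 39 were higher and 10 lower. SEMA3D rose from 0.388 and 0.384 to 6.2 and 9.69 CPM (4.36), and SEMA6A fell from 197 and 309 to 116 and 102 CPM (-1.21). Of 22 growth factor receptors 3 were called higher, AXL, PDGFRB and DDR1 (2.33), and MET fell. Of 15 matrix proteases and inhibitors 2 rose and 1 fell, ADAM19 (3.41), MMP15 (1.07) and MMP8 (-2.10, and 0.82 against shSCR1), and against shSCR1 8 of 19 of that list were lower and 3 higher. Of 15 annexins and S100 proteins 2 rose, ANXA1 (3.40) and S100A4 (1.90).

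Of 20 immediate early genes 3 fell and 5 rose, and against shSCR1 8 were lower and 4 higher. EGR1, EGR2 and EGR3 fell by 1.93, 1.87 and 2.02, whereas FOSL1, JUN, JUND, ATF3 and NR4A2 rose, by 1.68, 1.34, 1.56, 1.03 and 1.34. The EGR genes were lower against shSCR1 as well (-2.73, -2.55 and -2.53). JUND and FOSL1 stayed higher there (1.59 and 1.20), and JUN and ATF3 were -0.01 and -0.07. SPRY4 and DUSP8 were the 2 of 18 MAPK feedback regulators that rose, and against shSCR1 1 of 18 was higher and 4 lower. SPRY4, a Sprouty inhibitor of receptor signalling, went from 77 and 56.1 to 215 and 216 CPM (1.70 ± 0.161, adjusted p = 0.000464).

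Of 30 glycolysis and hypoxia genes 4 fell (13.3%) and 2 rose (6.67%): HK2, PGAM1, ENO2 and LDHA fell by 1.31, 1.26, 1.45 and 1.05, while SLC2A1, the glucose importer, and EGLN3, an oxygen sensor, rose. LDHA, lactate dehydrogenase A, went from 962 and 912 to 524 and 382 CPM. PPARGC1A and PPARGC1B were the only 2 of 39 genes of oxidative phosphorylation and its coactivators that were called, and PPARGC1B fell by 1.15. Against shSCR1, 1 of these 39 was lower and 0 were higher. CTSB was the only 1 of 44 lysosome and V-ATPase genes called, with a list median of -0.12, whereas against shSCR1 12 of 44 were lower and 0 higher, with a median of -0.66. None of 24 cholesterol synthesis genes and none of 31 ribosomal protein genes was called, and their log2 fold changes ranged from -0.89 to 0.99 and from -0.41 to 0.25. Of 15 genes of fatty acid synthesis, apolipoproteins and LXR targets 2 fell and 1 rose. FADS1, a fatty acid desaturase, fell from 186 and 165 to 82.7 and 73 CPM (-1.17). Of 17 circadian clock genes 4 fell (23.5%): PER3 fell from 95.5 and 113 to 24.1 and 18.7 CPM (-2.29 ± 0.166, adjusted p = 0.000199), and PER2, CRY1 and BHLHE41, repressors of the clock, fell by 1.19, 1.06 and 1.23. Of 23 ATF4 and amino acid stress genes 2 rose, SLC7A11 and ATF3. Of 23 p53 targets 1 fell, TIGAR (-1.40), and none rose, and of 29 interferon-stimulated genes 1 fell, IFI16 (-1.41), and 1 rose, OAS2 (1.56, and -0.56 against shSCR1). Over all genes tested, 3.4% fell and 5.59% rose. Against shSCR1, 12 of 31 interferon-stimulated genes were lower and 1 higher, with a median of -0.76 (0.19 against shSCR2). PBRM1, a PBAF subunit, was the only 1 of 22 SWI/SNF genes called, from 244 and 330.5 to 95.9 and 109.8 CPM (-1.48 ± 0.163, adjusted p = 0.000873). Against shSCR1, 0 of 23 SWI/SNF genes were lower and 2 were higher, so the fall of PBRM1 was called against shSCR2 only. In the BCL2 family and its inhibitors, 1 of 20 fell (BIRC7) and 3 rose. BIK, BMF and BOK, which promote apoptosis, rose by 2.79, 2.21 and 1.15, and were 2.62, -0.37 and 1.33 against shSCR1.

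**Figure D4:**
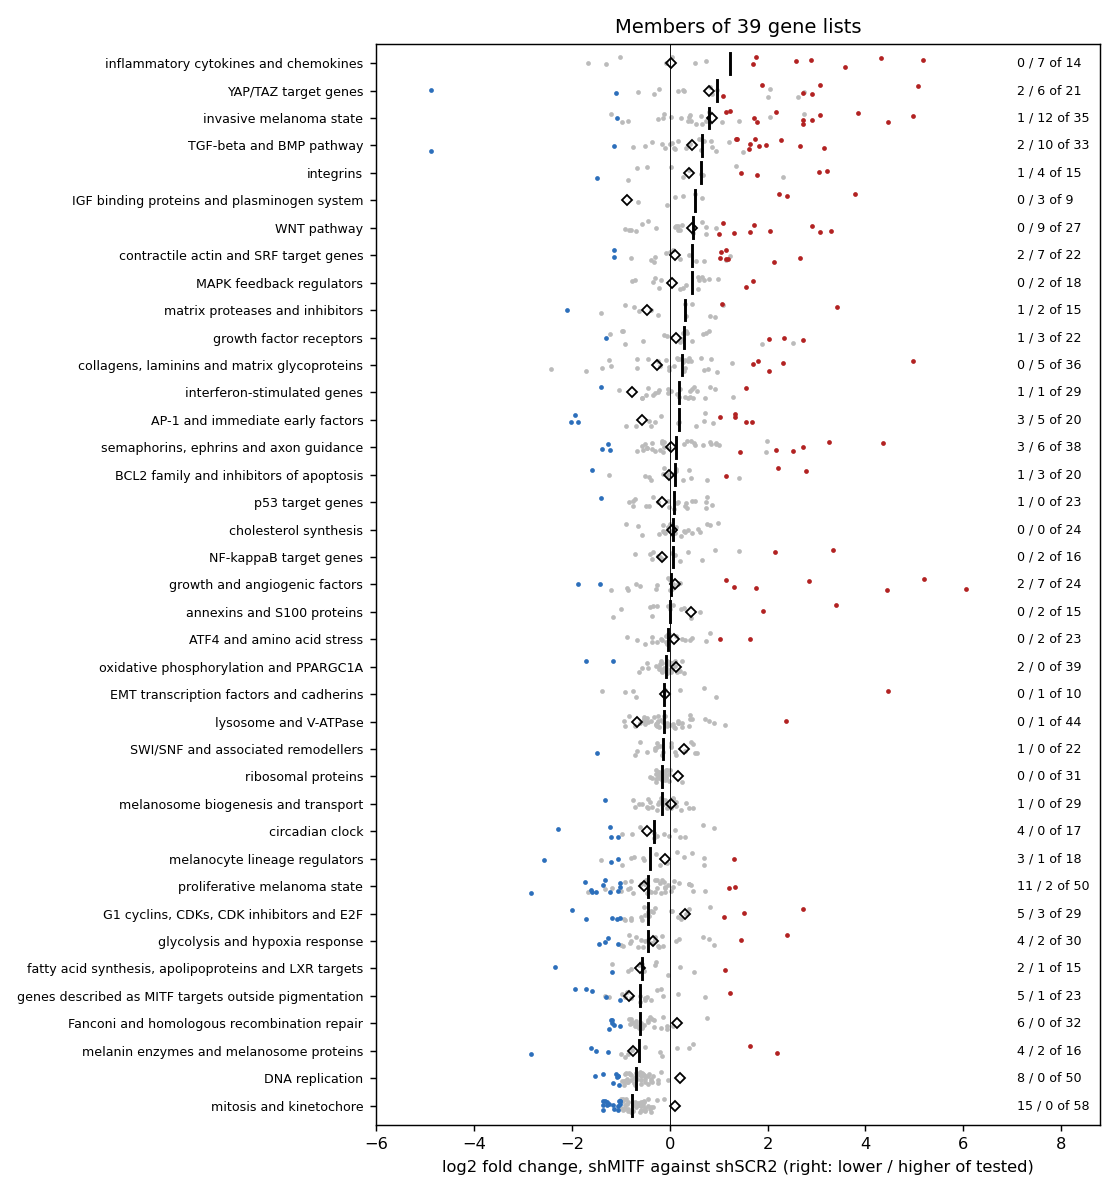
Log2 fold changes of shMITF against shSCR2 for the tested members of 39 lists, ordered by median (bar), with members that fell in blue, members that rose in red and the numbers that fell and rose at the right. Open diamonds give the median against shSCR1, and for 17 lists it has the opposite sign, including mitosis, DNA replication and repair.

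Genes near MITF-associated regulatory elements, which the study defined at active sites from the ChIP-seq profiles of MITF, SOX10, BRG1 and acetylated H3K27, were taken from a gene list of the study. The list as used here may not hold every gene near such elements. It holds 1262 gene identifiers, of which 1006 were tested here. Of these, 65 fell (6.46%) and 68 rose (6.76%), against 3.4% and 5.59% of all genes tested, and the median log2 fold change was -0.08. With shSCR1 as the control, 149 of 1035 were lower and 136 higher, with a median of 0.06. Among all genes tested against shSCR1, 17.6% were lower and 12.2% higher, so the larger share of falls was seen against shSCR2 only.

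The response to shMITF was set against that to shBRG1 in the same line, each with its own scramble. In a joint fit of 22255 genes, the shMITF effect was lower than the shBRG1 effect at 11.8% of genes and higher at 15.5%. In 14 of the 16 melanin genes the shMITF effect was higher, that is, less negative than that of shBRG1 or positive. TYR was -4.03 with shBRG1 against 0.47 with shMITF (difference 4.48, adjusted p = 1.3e-10), and DCT was -5.04 against -2.82 (difference 2.19, adjusted p = 9.02e-05). SOX10 was -2.44 with shBRG1 and -0.52 with shMITF (difference 1.89, adjusted p = 1.11e-07). In the proliferative list 36 of 50 genes, and in the lysosome list 23 of 44, were higher with shMITF than with shBRG1 by the same test. Among the largest differences, CCL2 was -0.75 and COL22A1 -2.62 with shBRG1, whereas ANXA1, annexin A1, rose further with shBRG1 (6.95 against 3.40). ZNF850, OR51B5 and TRERF1 fell with shMITF and were 2.52, 2.48 and 1.22 with shBRG1. B3GALT4 and IGFBP5 rose with shMITF and were -2.93 and -2.61 with shBRG1, and MARCHF8 rose by 1.22 with shMITF and was 4.91 with shBRG1. MITF itself was -1.55 with shBRG1, and the difference of 0.46 did not reach the fold threshold (adjusted p = 0.0105). For TFEB the values were -2.94 and -2.56, with a difference of 0.36 (adjusted p = 0.0696). Since shMITF and shBRG1 were normalised to different scrambles, the difference between scrambles enters these values.

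The same hairpin in Hermes 3A melanocytes gave a difference between lines at few genes. In a joint fit of 19284 genes, the effect was lower in 501Mel at 0.643% of genes and higher at 2%. MITF was -0.85 in Hermes 3A (difference -0.22, adjusted p = 0.716). DCT (-2.71), MLANA (-1.15), CDK2 (-1.32), MET (-1.73) and RAB27A (-1.33) were negative there too, and none of these differences was called, which does not show that the lines respond alike. In the pigment list 2 of 16 genes differed: SLC45A2, a melanosomal transporter, was 0.39 in 501Mel and -3.14 in Hermes 3A (difference 3.51, adjusted p = 0.000835), and SLC24A5, a cation exchanger, -0.15 and -1.19 (difference 1.03, adjusted p = 0.012). TFEB and SOX6 fell in 501Mel and were 0.67 and 0.88 in Hermes 3A (differences -3.24 and -2.09, adjusted p = 0.00301 and 0.00846), and PPARGC1A was 0.23 there (difference -1.96, adjusted p = 0.0129). Of the WNT list, 5 of 27 genes were higher in 501Mel, among them LEF1, NKD1, RNF43 and ZNRF3, with differences of 1.68, 2.37, 2.79 and 2.06. CDK6 was -0.89 in Hermes 3A (difference 2.39, adjusted p = 0.000962). In the mitosis list 0 of 58 genes differed by this test, with medians of -0.77 in 501Mel and -0.62 in Hermes 3A.

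**Figure D5:**
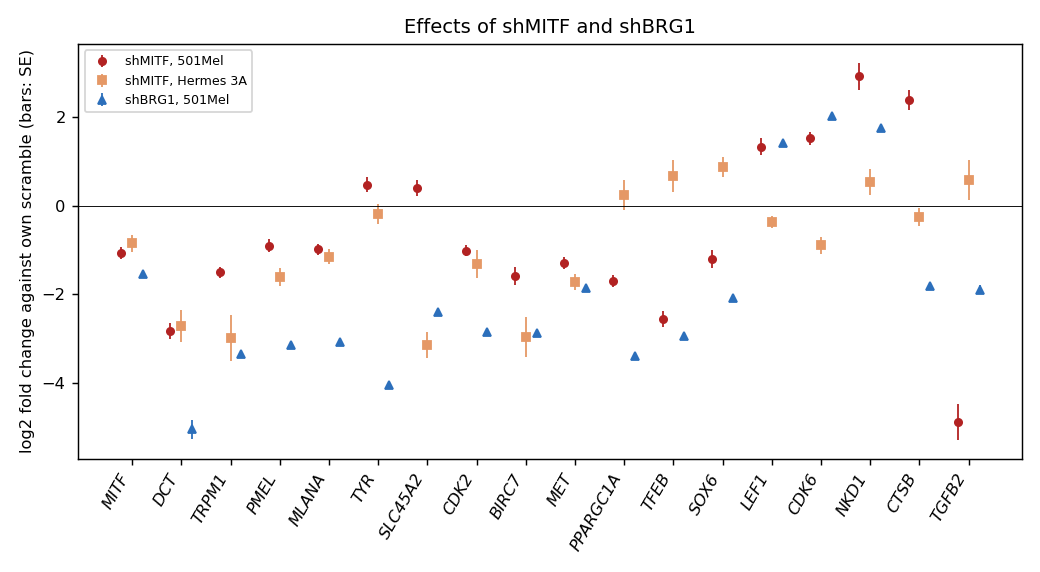
Log2 fold changes with standard errors of 18 genes for shMITF in 501Mel (red circles), shMITF in Hermes 3A (orange squares) and shBRG1 in 501Mel (blue triangles), each against its own scramble. MITF, DCT, CDK2 and MET lie low in all 3, whereas TFEB, SOX6, PPARGC1A and TGFB2 lie below 0 in both 501Mel experiments and above 0 in Hermes 3A.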

How the data were processed

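Total RNA was depleted of ribosomal RNA, normalised with duplex-specific nuclease and sequenced. The deposited values are the raw read counts per Ensembl gene that the authors made, 1 file per sample. The submitters' processing notes name CASAVA 1.8, TopHat 1.4.1, Bowtie 0.12.7 and hg19, without roles, and the counting program, annotation and strand setting are not given in the sources used here. Groups came from the sample labels. The 41467 genes listed for the 4 samples were filtered by edgeR's filterByExpr, scaled by TMM and tested with the edgeR (4.0.16, R 4.3.3) quasi-likelihood test, with Benjamini-Hochberg adjustment over all genes tested. A gene was called at an adjusted p under 0.05 and an absolute log2 fold change over 1. Differences of effects were contrasts in joint fits of 4 groups. On simulated counts for shMITF against shSCR2, 200 of 200 genes changed 4-fold were called, with 25 unchanged genes called. The changed genes were drawn from those averaging more than 100 counts over the 4 samples. Recovery at lower counts or of smaller changes was not simulated. In the data, 22.1% of the genes that fell and 34.3% of those that rose averaged under 100 counts in the higher group.

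The members and the gene lists were chosen with earlier results of these data known. Genes named are the 12 largest rises and falls with at least 100 counts on average in the higher group, the 5 largest changes in CPM in each direction, up to 5 called members of each list in each direction, the 5 largest differences of effect in each direction, and genes the study names for MITF silencing, from which examples were taken. The uncalled genes named (such as TYR, PAX3, TFE3, SNAI2, ZEB2, VIM, CTNNB1, SLC45A2 and SLC24A5) were chosen after their values were seen. Some genes of the rule are not reported here. Symbols came from a reference table (41130 of 44717 identifiers matched), and promoter sequences from RefSeq on GRCh38.p14, whose build differs from that of the counts. The alternatives were DESeq2 (1.42.0), library sizes in place of TMM, other count filters, glmTreat, no fold threshold, the replicate number as a block, 1 fit of all 501Mel groups, other controls and leaving out each sample.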

Additional observations from a re-analysis of the deposited data

Results flagged for a closer look

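The effect of shMITF differed between 501Mel and Hermes 3A, by the test of the difference itself, at 124 genes that were lower and 385 that were higher in 501Mel. The largest differences among genes called in 501Mel are given as values. TGFB2 was -4.87 in 501Mel and 0.57 in Hermes 3A, a difference of -5.45 on the log2 scale (adjusted p = 0.00114). PERM1 differed by -4.39 (adjusted p = 0.00467), STON1 by -4.29 (adjusted p = 0.00169), OSBPL10 by -4.10 (adjusted p = 0.000238) and DYNLT2B by -3.44 (adjusted p = 0.00178), and each fell in 501Mel and had a positive value in Hermes 3A. In the other direction, KRT23 differed by 6.92 (adjusted p = 0.00169), PRDM1 by 5.64 (adjusted p = 0.00739), MAL2 by 5.36 (adjusted p = 0.00904) and SOSTDC1 by 5.14 (adjusted p = 0.02). Counts in Hermes 3A were low for SOSTDC1 (at most 13 in any sample), PERM1 (at most 14), KRT23 (at most 36) and TGFB2 (at most 39). PKLR, the pyruvate kinase of liver and red cells, differed by 5.88 (adjusted p = 0.00198): it had 0, 1 and 0 counts in the Hermes 3A shMITF samples and 96, 53 and 90 in the shSCR samples, while it was -1.23 in 501Mel. These are the edgeR quasi-likelihood test with Benjamini-Hochberg adjustment over all 19284 genes, and their causes were not tested.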

How the results depend on the processing

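The number of genes called depended on the threshold and the control. Against the 602 lower and 990 higher genes, edgeR with 1 fit over all 501Mel groups called 922 and 1596, glmTreat 82 and 141, no fold threshold 1862 and 1775, both scrambles pooled as the control 248 and 327, and shSCR1 as the control 3376 and 2335. Library sizes in place of TMM gave 459 and 1187, DESeq2 583 and 823, a minimum of 10 counts in every sample 491 and 788, and no filter 766 and 1367. Leaving out 1 sample gave 413 to 818 lower and 543 to 1273 higher genes, the 543 without shMITF replicate 2. The MITF log2 fold change was -0.96 with library sizes, -0.58 with the pooled control and -0.12 with shSCR1, and -1.17 to -0.98 with 1 sample left out, where it was past the fold threshold in only some fits. For the difference from shBRG1, no fold threshold gave 4729 lower and 5975 higher genes. For the difference from Hermes 3A, DESeq2 called 286 lower and 618 higher genes, no filter 215 lower, and leaving out 1 sample 23 to 242 lower and 129 to 561 higher.

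With the replicate number as a block, 730 genes were lower and 1127 higher, and MITF was -1.06. The differences were 2513 and 3394 for shBRG1 and 154 and 423 for Hermes 3A. Across genes, deviations shared a correlation of 0.103 between samples of equal number, and 2 pairs do not establish a pairing.

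Of 139 named genes called, other than MITF, 92 were called whichever sample was left out. The call was lost for 29 without shMITF replicate 2, 11 without shMITF replicate 1, 20 without shSCR2 replicate 1 and 24 without shSCR2 replicate 2. Of 163 named genes other than MITF, 24 changed sign with shSCR1 as the control. Genes that had risen or were positive were lower: ATF3 at -0.071, B3GALT4 at -0.76, BMF at -0.37, COL13A1 at -0.20, CXCL8 at -1.72, IL11 at -2.39, IL24 at -1.34, JUN at -0.011, OAS2 at -0.56, TAGLN at -0.27 and TYR at -0.61. Genes that had fallen or were negative were higher: CDK1 at 0.084, CDK4 at 0.044, CENPO at 0.0081, CLSPN at 0.018, KNL1 at 0.026, MMP8 at 0.82, NPM1 at 0.48, OR51B5 at 0.52, SLC24A5 at 0.076, SMARCA4 at 0.67, SNAI2 at 0.33, SPC25 at 0.87 and VIM at 0.0043. With the pooled control B3GALT4 was -0.15, CXCL8 -1.06, IL11 -1.65, IL24 -0.64, OAS2 -0.025, TYR -0.26, SMARCA4 0.29 and SPC25 0.059. CTNNB1 was 0.047 with library sizes and ranged from -0.20 to 0.086 with 1 sample left out. The causes were not tested. Low-count genes and the 2 samples per group limit the precision.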
